A study of Mus musculus with 6 samples.

Results

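The 10 genes described here belong to the BCL2 family, which controls the survival and death of cells, and were followed through the cells of the mouse spleen: the pro-survival genes Bcl2, Bcl2l1, Mcl1, Bcl2a1b and Bcl2a1d, the effectors Bax and Bak1, and the BH3-only genes Bcl2l11, Bbc3 and Pmaip1. They were chosen by symbol as a gene family, with no measured value in the rule, but with earlier results of these data known. All 10 are among the 32285 genes of the count tables, and none of them was used to define a cell class. The study profiled splenocytes of wild-type C57BL/6 mice by droplet single-cell RNA sequencing (10x Genomics, 3′ kit), in which each RNA molecule captured is counted once as a unique molecular identifier (UMI). Mice were 6 weeks old when they were put for 7 weeks either on ND, the control diet of the labels, or on MCDHFD, the diet that the labels describe as producing a model of MASH (metabolic dysfunction-associated steatohepatitis). The sample titles write MCD where the treatment label writes MCDHFD, the name used here. Each diet has 3 libraries, and the title of the series names splenic CD8 T cells with high Trnp1 as its subject. Nothing in the labels says how many mice went into a library, so the p-values measure the spread between libraries.

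Proteins of this family decide whether the outer mitochondrial membrane stays intact. BAX and BAK1 are the effectors that can perforate it and release cytochrome c. BCL2, BCL-XL (Bcl2l1), MCL1 and the A1 proteins (Bcl2a1b, Bcl2a1d) hold the effectors in check, and the BH3-only proteins BIM (Bcl2l11), PUMA (Bbc3) and NOXA (Pmaip1) bind the pro-survival proteins and free the effectors. In the immune system, lymphocytes lean mainly on BCL2 and MCL1, neutrophils on MCL1 and A1, and BIM sets the lifespan of unneeded lymphocytes. The RNA level of a gene does not give the level of its protein.

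A barcode counted as a cell when it had at least 1000 UMIs, of which no more than 10% were mitochondrial. This left 3278 to 6625 cells per library and 31542 in all, with a median of 4462 to 6186 UMIs. ND replicate 2 and MCDHFD replicate 3 were deposited as filtered barcode lists, the other 4 as unfiltered lists of 1114720 to 1345921 barcodes. These 2 libraries stood apart: their cells had a median of 0.569% and 1.68% mitochondrial UMIs, against 3.73% to 3.96% in the other 4. The form of the list was therefore a term beside diet in every test of diet, and results with diet alone are given for comparison. MCDHFD replicate 3 also held pancreas acinar RNA: 3 acinar markers summed to 25.3 to 218 CPM in its 9 classes and to at most 15.3 CPM in any class of the other 5 libraries. Pairs of libraries shared 0 to 18 kept barcodes.

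The 9 cell classes were gated on UMIs of single genes: B cells (at least 2 Cd79a), CD8 T cells (Cd3e and Cd8b1), CD4 T cells (Cd3e and Cd4) with and without Foxp3, NK cells (Ncr1 without Cd3e), monocytes and macrophages (Csf1r, below mono/mac), neutrophils (Csf3r and at least 5 S100a8), dendritic cells (Flt3 and at least 3 H2-Aa) and erythroid cells (Klf1). Levels are given as CPM, the UMIs of a gene among 1000000 UMIs of its class in a library, which is not corrected for gene length. Marker genes that the gates did not use were detected in the classes they belong to: summed over 4 markers, NK markers reached 4908 to 7264 CPM in NK cells, where the T cell markers stayed at 39.1 to 104 CPM. The neutrophil marker list also held Csf3r, a gene of its own gate. The 2 T cell marker lists shared Cd3d, Cd3g and Trac, so that what told the gates apart was Cd8a, at 238 to 421 CPM in CD8 T cells and 2.92 to 32.3 CPM in Foxp3- CD4 T cells. The dendritic gate was mixed: 429 of its 879 cells also passed the B cell gate and its Ms4a1 level was 298 to 442 CPM. The mono/mac and neutrophil gates had 604 cells in common. Levels, diet differences and interactions of the members were therefore also computed from cells that passed 1 gate only. The number of cells is small in some classes, with 41 to 61 Foxp3+ CD4 T cells and 25 to 67 erythroid cells per library, and 37 NK cells in MCDHFD replicate 3.

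Across the classes, Bcl2 was a lymphocyte gene in this spleen. Its mean level over the 6 libraries was 681 CPM in NK cells, 486 CPM in CD8 T cells, 432 CPM in Foxp3- CD4 T cells, 391 CPM in Foxp3+ CD4 T cells and 256 CPM in B cells. Dendritic cells (124 CPM) and mono/mac (112 CPM) had less, and neutrophils (45.1 CPM) and erythroid cells (21.6 CPM) the least, so that its levels spanned 31.6-fold. In all 6 libraries Bcl2 was higher in Foxp3+ CD4 T cells than in B cells, higher in B cells than in dendritic cells, and higher in mono/mac than in neutrophils. The 4 neighbours at the top of the order, NK, CD8 T and both CD4 T classes, were not in the same order in every library. With cells that passed 1 gate only, Bcl2 was lower outside the lymphocyte classes: 85.5 CPM in mono/mac, 30.2 CPM in dendritic cells, 9.23 CPM in neutrophils and 6.15 CPM in erythroid cells. There mono/mac exceeded dendritic cells in 6 of 6 libraries, which reverses their order above.

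Mcl1, whose protein is short-lived and must be made continuously, had a different order. It was highest in neutrophils (781 CPM) and mono/mac (476 CPM), lay between 195 and 322 CPM in the lymphocyte classes and dendritic cells, and was lowest in erythroid cells (93.8 CPM). Mono/mac exceeded B cells in 6 of 6 libraries, and neutrophils exceeded mono/mac in 5 of 6. Bcl2l1 was highest in Foxp3+ CD4 T cells (42.5 CPM) and NK cells (38.8 CPM), which were not distinguishable from each other, and lowest in erythroid cells (4.31 CPM) and B cells (4.37 CPM).

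The A1 genes were at their highest in dendritic cells, with 232 CPM of Bcl2a1b and 163 CPM of Bcl2a1d, above mono/mac (98.8 and 54.4 CPM) in 6 of 6 libraries for both. With cells that passed 1 gate only, dendritic cells had 403 and 299.7 CPM of them. Among T cells, Bcl2a1b was higher in Foxp3+ than in Foxp3- CD4 T cells in 6 of 6 libraries (93.0 against 48.5 CPM). The mouse A1 genes are near copies in 1 cluster. In mm10, Bcl2a1d lies at chr9:88723285-88731914 on the minus strand and Bcl2a1b at chr9:89199209-89207827 on the plus strand, and the sister copy Bcl2a1a at chr9:88956900-88962419. The 519 coding bases of Bcl2a1b and Bcl2a1d were 98.8% identical in the GENCODE vM21 annotation, and those of Bcl2a1a were 97.9% identical to Bcl2a1b and 98.7% to Bcl2a1d. Their first 60 coding bases are shown because 6 of the 12 positions at which the copies differ fall there, in capitals.
Bcl2a1a: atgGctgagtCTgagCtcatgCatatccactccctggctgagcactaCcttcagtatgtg
Bcl2a1b: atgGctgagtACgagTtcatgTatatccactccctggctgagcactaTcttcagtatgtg
Bcl2a1d: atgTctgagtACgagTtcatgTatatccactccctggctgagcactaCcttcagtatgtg
How reads that match more than 1 copy were counted is not given in the sources used here, so the division of the A1 signal between Bcl2a1b and Bcl2a1d is uncertain. Bcl2a1b also overlaps the gene model Gm29094, Bcl2 overlaps Gm37053, Mir3473f and, on the other strand, D630008O14Rik, and Bax overlaps Gm45808.

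Of the effectors, Bax ranged 3.45-fold, from 46.6 CPM in neutrophils to 161 CPM in erythroid cells, and erythroid cells exceeded dendritic cells in 6 of 6 libraries. With cells that passed 1 gate only, Bax was at 24.4 CPM in neutrophils and 162 CPM in erythroid cells. Bak1 ranged 2.81-fold, from 20.3 CPM in CD8 T cells to 56.9 CPM in erythroid cells. With cells that passed 1 gate only, Bak1 was highest in mono/mac (58.3 CPM), then erythroid cells (53.9 CPM), and lowest in B cells (19.4 CPM). The BH3-only genes each had their own order. Bcl2l11 was highest in NK cells (99.0 CPM) and erythroid cells (50.03 CPM), Bbc3 in CD8 T cells (27.5 CPM) and NK cells (26.8 CPM), and Pmaip1 in dendritic cells (61.0 CPM), mono/mac (28.6 CPM) and neutrophils (17.0 CPM). With cells that passed 1 gate only, Pmaip1 reached 106 CPM in dendritic cells. Over the gates as drawn, Pmaip1 was at 1.35 to 8.02 CPM in the lymphocyte and erythroid classes.

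Over the 80 neighbouring pairs of classes in these orders, an exact two-sided sign-flip permutation test of the 6 within-library differences cannot give a p below 0.0312. After Benjamini-Hochberg adjustment over the 80 pairs the smallest value was 0.114, so none of the neighbours was separated by the test, and the statements above rest on the number of libraries that show the order (22 of 80 pairs were in the same order in 6 of 6).

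**Figure D1:**
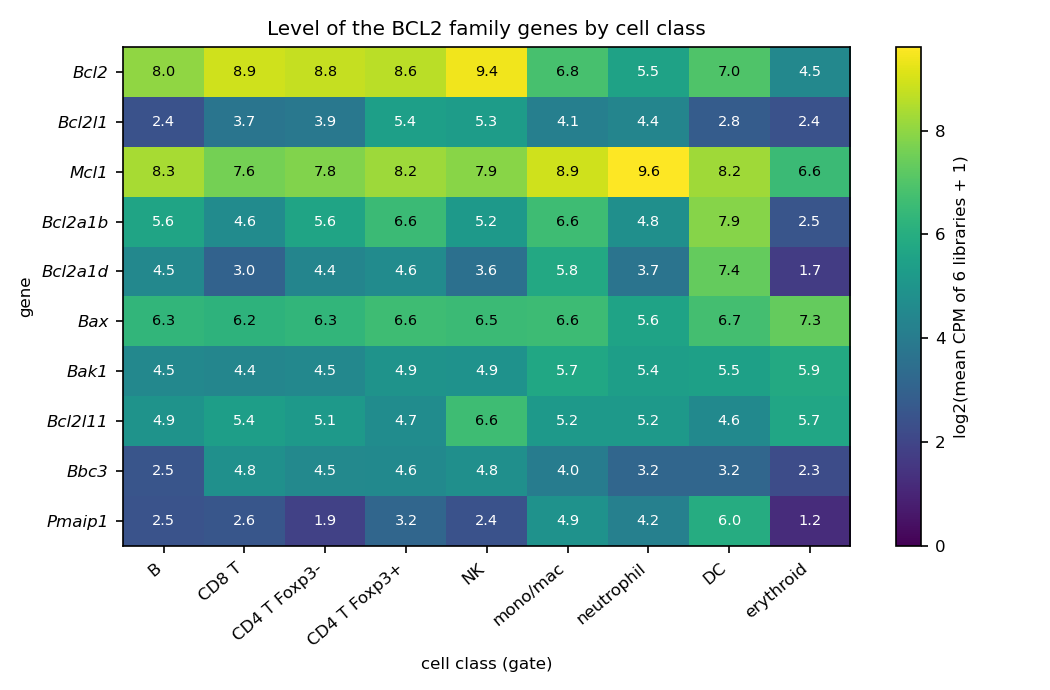
Mean level of the 10 genes (rows) in the 9 gated classes (columns), as log2 of the mean CPM of 6 libraries plus 1; colours are to be read along a row, since levels are not corrected for the gene. Bcl2 is high in lymphocytes (681 CPM in NK cells) and low in neutrophils (45.1 CPM), and Mcl1 is highest in neutrophils (781 CPM).

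Genes whose pattern was most like that of a member were sought among 9151 genes over the 54 sums of class and library, by Pearson correlation of log2(CPM + 1), given as a description because sums share libraries and depth. Bcl2 was most like Herc3 (r = 0.94), Klhl6 (0.94) and Ablim1 (0.93), Mcl1 was most like Arpc5 (0.94), Zfp36 (0.92) and S100a11 (0.92), and Bax most like Atp5d (0.94), Rtraf (0.93) and Ndufa11 (0.92). Bcl2a1b was most like Relb (0.85), a subunit of the transcription factor NF-kappa-B, then Asb2 (0.84) and Ptms (0.83), and Bcl2a1d most like Asb2 (0.83), Gm2a (0.82) and Nlrp1b (0.80). Pmaip1 was most like Ppt1 (0.89), Rin2 (0.87) and Havcr2 (0.86), Bak1 most like Vamp8 (0.88), Pnp (0.87) and Gpx1 (0.84), and Bbc3 most like Lfng (0.86), Atp1b3 (0.84) and Rnf166 (0.83). The closest genes were less alike for Bcl2l1 (Spata13, 0.81) and Bcl2l11 (Ugcg, 0.76).

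Between the diets, Bcl2 was higher under MCDHFD in Foxp3- CD4 T cells and in NK cells. BH3-only genes were also higher in those classes, Bbc3 in Foxp3- CD4 T cells and Bcl2l11 in NK cells. The A1 genes were lower: Bcl2a1b in both CD4 T classes and Bcl2a1d in B cells. In all, 7 of the 80 pairs of gene and class that had at least 60 UMIs passed the test (edgeR quasi-likelihood, Benjamini-Hochberg adjustment over all genes of the class, threshold 0.05), 4 higher and 3 lower. The other 10 of the 90 pairs were too low to test: Bcl2l1, Bcl2a1b, Bcl2a1d, Bbc3 and Pmaip1 in erythroid cells, Pmaip1 in NK and both CD4 T classes, Bcl2a1d in NK cells and Bbc3 in Foxp3+ CD4 T cells. Without the list form as a term, with diet alone, edgeR called 0 of 80, and 14 of the 80 had an unadjusted p under 0.05.

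The share of members called has to be read against all genes of the class. Members and model terms were chosen with earlier results of these data known, so these shares are a description. In Foxp3- CD4 T cells 3 of 9 tested members were called, where 1.46% of all tested genes were. In NK cells it was 2 of 8 members against 3.06% of all genes, in Foxp3+ CD4 T cells 1 of 8 against 2.50%, and in B cells 1 of 10 against 4.13%. No member was called in the other 5 classes, with backgrounds of 0.630% in CD8 T cells, 1.17% in mono/mac, 6.36% in neutrophils, 1.58% in dendritic cells and 0.0992% in erythroid cells, and 4, 3, 4, 3 and 1 members respectively had an unadjusted p under 0.05 in edgeR there. DESeq2 with the same terms called 11 of 80 pairs in all. With diet alone the background was 0% in B cells, Foxp3- CD4 T cells, NK cells, mono/mac and dendritic cells, 0.00888% in CD8 T cells, 0.136% in Foxp3+ CD4 T cells, 0.0522% in neutrophils and 0.011% in erythroid cells.

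The median log2 difference of the tested members was -0.59 in Foxp3+ CD4 T cells and 0.38 in neutrophils, where that of all tested genes was -0.01 and 0.00. In the other 7 classes it lay between -0.18 and 0.15. The CPM of the diets did not overlap in 4 tested members in Foxp3- CD4 T cells (8.81% of all genes), 3 in NK cells (14.9%), 2 in B cells (11.7%), 2 in Foxp3+ CD4 T cells (12.6%) and 2 in neutrophils (22.2%). It was 1 member in CD8 T cells (8.32%), mono/mac (11.0%) and dendritic cells (10.8%) and 0 in erythroid cells (8.32%).

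Cells that passed 1 gate only gave 13 calls, with more genes called overall. There were 4 in Foxp3- CD4 T cells (3.86% of all genes), 2 in CD8 T cells (2.59%), 2 in NK cells (4.89%), 1 in Foxp3+ CD4 T cells (1.05%) and 4 in neutrophils (26.7%). There were 0 in B cells (7.23%), mono/mac (0.689%), dendritic cells (1.23%) and erythroid cells (0.189%). The 4 unfiltered libraries alone also gave 13 calls, among them Bax, lower in B cells (-0.37) and NK cells (-0.86). By class these were 4 in B cells (20.7%), 4 in NK cells (11.7%), 2 in CD8 T cells (2.80%), 2 in Foxp3+ CD4 T cells (4.93%) and 1 in Foxp3- CD4 T cells (2.65%). Neutrophils (12.3%), mono/mac (0.189%), dendritic cells (0.144%) and erythroid cells (0.0242%) had 0 there.

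Bcl2 (ENSMUSG00000057329, mm10 chr1:106538178-106714274, minus strand) was the member with calls in 2 classes upward. In Foxp3- CD4 T cells it stood at 298, 199 and 347 CPM in ND replicates 1 to 3 and at 689, 712 and 348 CPM in MCDHFD replicates 1 to 3, or 281 ± 75.4 and 583 ± 204 CPM (mean ± SD, n = 3). The diets did not overlap, but MCDHFD replicate 3 lay next to ND replicate 3, and within each list form the MCDHFD library or libraries were higher (1.12 on the log2 scale in unfiltered and 0.80 in filtered lists). The log2 difference was 1.00 ± 0.11 (SE; edgeR adjusted p = 0.0041 with list form, 1.0 with diet alone).

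In NK cells Bcl2 was at 383, 278 and 479.5 CPM under ND and at 991, 1314 and 639 CPM under MCDHFD. Every MCDHFD library exceeded every ND library, and the log2 difference was 1.28 ± 0.17 (SE; edgeR adjusted p = 0.0043 with list form, 0.454 with diet alone). Both Bcl2 differences were called by edgeR without each library in turn (adjusted p of 0.0036 to 0.0192 in Foxp3- CD4 T cells and 0.0025 to 0.0222 in NK cells). Neither was called with diet alone. The rise was also seen as a share of cells. After thinning every cell to 1000 UMIs, 16.4% to 21.5% of Foxp3- CD4 T cells had a Bcl2 UMI under ND and 28.5% to 39.6% under MCDHFD (51.2% to 59.3% and 71.7% to 82.4% unthinned), and in NK cells 18.2% to 29.1% and 35.1% to 57.7% (62.3% to 68.1% and 86.5% to 89.7% unthinned). In erythroid cells, which had little Bcl2, the thinned shares were 0% to 2.99% and 2.94% to 8%.

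In the other classes the Bcl2 difference was also positive, at 0.36 in B cells, 0.58 in CD8 T cells, 0.66 in Foxp3+ CD4 T cells, 0.45 in mono/mac, 0.61 in neutrophils, 0.59 in dendritic cells and 0.68 in erythroid cells on the log2 scale, and none of these passed the test. CD8 T cells came closest, with 430, 258 and 437 CPM under ND and 704, 741 and 347 CPM under MCDHFD (edgeR adjusted p = 0.0519). The diets overlapped there, MCDHFD replicate 3 lying below ND replicates 1 and 3. With cells that passed 1 gate only, Bcl2 in CD8 T cells was called (0.60, edgeR adjusted p = 0.0041), whereas in mono/mac and dendritic cells the difference turned negative (-0.29 and -0.31, adjusted p = 0.669 and 0.909). The sign in these 2 gates thus differed between the 2 sets of cells, but none of these values was called and no test compared them.

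Bcl2 RNA in barcodes with few UMIs was also higher under MCDHFD. In the 4 unfiltered libraries, barcodes with 10 to 100 UMIs, which are mostly droplets without a cell, held Bcl2 at 136 and 99.3 CPM in ND replicates 1 and 3 and at 250 and 214 CPM in MCDHFD replicates 1 and 2. Its part in the differences above was not tested. In Foxp3- CD4 T cells the 4 B cell markers, all detected, summed to 133 to 430 CPM under ND and 163 to 213 CPM under MCDHFD. The class's own 4 CD4 T cell markers were lower without overlap, at 1743 to 1960 CPM under ND and 1354 to 1455 CPM under MCDHFD. The 4 neutrophil markers summed to 58.0 to 3959 CPM under ND and 201 to 1247 CPM under MCDHFD. Of the 322, 287 and 284 Foxp3- CD4 T cells under ND, 2, 5 and 3 also passed the mono/mac gate. Under MCDHFD it was 15, 12 and 29 of 514, 467 and 488 cells. The CD8 T gate was also passed by 29, 28 and 15 of them under ND and by 54, 49 and 82 under MCDHFD. With cells that passed 1 gate only, Bcl2 was still called in this class, but not there with diet alone. In NK cells the B cell markers summed to 290 to 668 CPM and 286 to 413 CPM. Of the 4 mono/mac markers Fcgr1 was at 0 in NK cells in all 6 libraries, and the sums of the list were 174 to 697 CPM and 203 to 571 CPM.

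**Figure D2:**
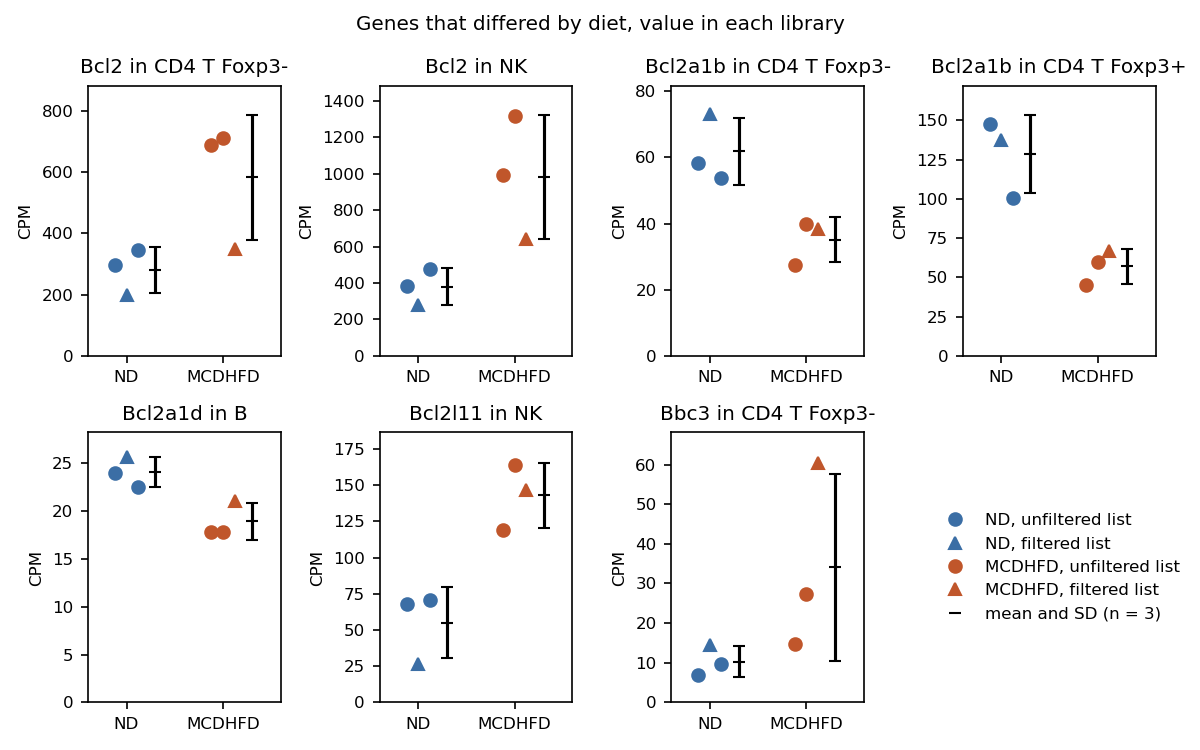
CPM in each library for the 7 pairs of gene and class that differed by diet; circles are libraries with unfiltered and triangles with filtered barcode lists, and the bars give mean and SD of 3 libraries. Bcl2 in NK cells is 278 to 479.5 CPM under ND and 639 to 1314 CPM under MCDHFD.

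Bbc3, which encodes PUMA, rose in Foxp3- CD4 T cells. It was at 6.85, 14.4 and 9.60 CPM under ND and at 14.8, 27.2 and 60.3 CPM under MCDHFD, a log2 difference of 1.62 ± 0.28 (SE; edgeR adjusted p = 0.0246 with list form). MCDHFD replicate 3, the library with acinar RNA (114 CPM in this class, at most 0.516 CPM in the other 5), was far above the others, and MCDHFD replicate 1 lay just above ND replicate 2. The call was lost in edgeR with diet alone (adjusted p = 1.0) and with the 4 unfiltered libraries (1.30, 0.0865). Leaving out ND replicate 2 or MCDHFD replicate 3 also lost it, but those fits likewise estimate diet from the 4 unfiltered libraries. It was lost too without ND replicate 1 or MCDHFD replicate 2. In CD8 T cells and B cells the Bbc3 differences were 0.70 and 0.70, with overlapping diets and adjusted p of 0.201 and 0.106 in edgeR. The barcodes with 10 to 100 UMIs had 6.48 and 5.74 CPM of Bbc3 under ND and 11.1 and 10.2 CPM under MCDHFD, the latter from 4 UMIs each.

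Bcl2l11, which encodes BIM, rose in NK cells. ND replicates 1 to 3 had 68.0, 26.7 and 70.5 CPM and MCDHFD replicates 1 to 3 had 119, 164 and 146 CPM, a log2 difference of 1.15 ± 0.23 (SE; edgeR adjusted p = 0.0212 with list form, 0.491 with diet alone). The diets did not overlap, and the lowest MCDHFD library was well above the highest ND library. Without ND replicate 1 or without MCDHFD replicate 2 the edgeR call was lost (highest adjusted p 0.127), as it was with thinned cells. In the other 8 classes Bcl2l11 differed by -0.03 to 0.58 on the log2 scale and passed in none of them. Pmaip1, the third BH3-only gene, passed in none of the 5 classes in which it could be tested (-0.19 to 0.40).

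The promoters of these genes are shown because forkhead factors are known to act on Bcl2l11 and Bbc3. Among windows of 250 bases before the RefSeq starts (GRCm38.p6), 14 windows belonged to members, and 9 of the 10 genes were matched (all but Pmaip1). The forkhead core TGTTTAC, on either strand, was found in 2 of the 14 windows and in 3.17% of all 32851 windows. It is in capitals in the windows at chr2:128125788-128126037 (plus strand), where the minus strand reads TGTTTAC 227 bases before the start, and at chr7:16310011-16310260 (plus strand), 167 bases before the start. Both windows overlap no annotated exon.
Bcl2l11: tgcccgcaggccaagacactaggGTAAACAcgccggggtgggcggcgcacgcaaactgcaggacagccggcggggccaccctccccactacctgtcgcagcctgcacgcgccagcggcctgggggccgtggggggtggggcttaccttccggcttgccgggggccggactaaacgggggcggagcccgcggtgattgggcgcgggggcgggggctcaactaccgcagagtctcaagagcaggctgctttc
Bbc3: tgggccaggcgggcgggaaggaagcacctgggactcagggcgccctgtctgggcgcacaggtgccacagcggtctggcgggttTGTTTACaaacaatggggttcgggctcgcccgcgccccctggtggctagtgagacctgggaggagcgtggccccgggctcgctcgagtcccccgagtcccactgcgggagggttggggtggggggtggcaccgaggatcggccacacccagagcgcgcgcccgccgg
The GC box GGGCGG was in 10 of the 14 windows (32.7% of all windows) and the E-box CACGTG in 2 of 14 (6.02%). The STAT motif TTCNNNGAA (7.02% of all windows), the cAMP response element TGACGTCA (1.55%) and the glucocorticoid response element, AGAACA and TGTTCT spaced by 3 bases (0.00913%), were in none of the 14, on either strand. A match is a description of these letters and not evidence of binding.

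The A1 genes had the opposite sign. In Foxp3+ CD4 T cells Bcl2a1b was at 148, 138 and 100.4 CPM under ND and at 45.0, 59.9 and 66.7 CPM under MCDHFD, without overlap. It fell by 1.24 on the log2 scale (SE 0.26; edgeR adjusted p = 0.011 with list form, 0.424 with diet alone), resting on 255 UMIs in all and lost in edgeR without ND replicate 1 or MCDHFD replicate 1 and in DESeq2. In Foxp3- CD4 T cells it was at 58.2, 73.2 and 53.9 CPM against 27.5, 39.7 and 38.2 CPM, again without overlap, and fell by 0.82 (SE 0.15; edgeR adjusted p = 0.0296, and 0.0269 to 0.118 without each library in turn, past the threshold only without MCDHFD replicate 2; 0.890 with diet alone). That call was also lost with thinned cells and with the 4 unfiltered libraries, on which the fits without ND replicate 2 or MCDHFD replicate 3 also rest. In B cells, the class with the most cells, Bcl2a1d was at 24.0, 25.7 and 22.6 CPM against 17.9, 17.8 and 21.1 CPM and fell by 0.37 (SE 0.08; edgeR adjusted p = 0.0488, and 0.714 with diet alone).

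Bcl2a1d in B cells was just past the threshold and kept its call in 8 of 18 alternatives (lost without ND replicates 1 or 3 and without MCDHFD replicates 1 or 2), while Bcl2a1b in B cells was just short of it (-0.35, edgeR adjusted p = 0.0575) with diets that did not overlap either. The Bcl2a1b difference was negative in 8 of 8 tested classes and that of Bcl2a1d in 7 of 7, with 3 of the 15 called. The neutrophil difference of Bcl2a1b was close to 0 (-0.04) and turned to 1.91 with cells that passed 1 gate only (edgeR adjusted p = 0.0046). As the 2 genes are near copies whose reads may be divided between them, their differences may not be independent of each other.

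**Figure D3:**
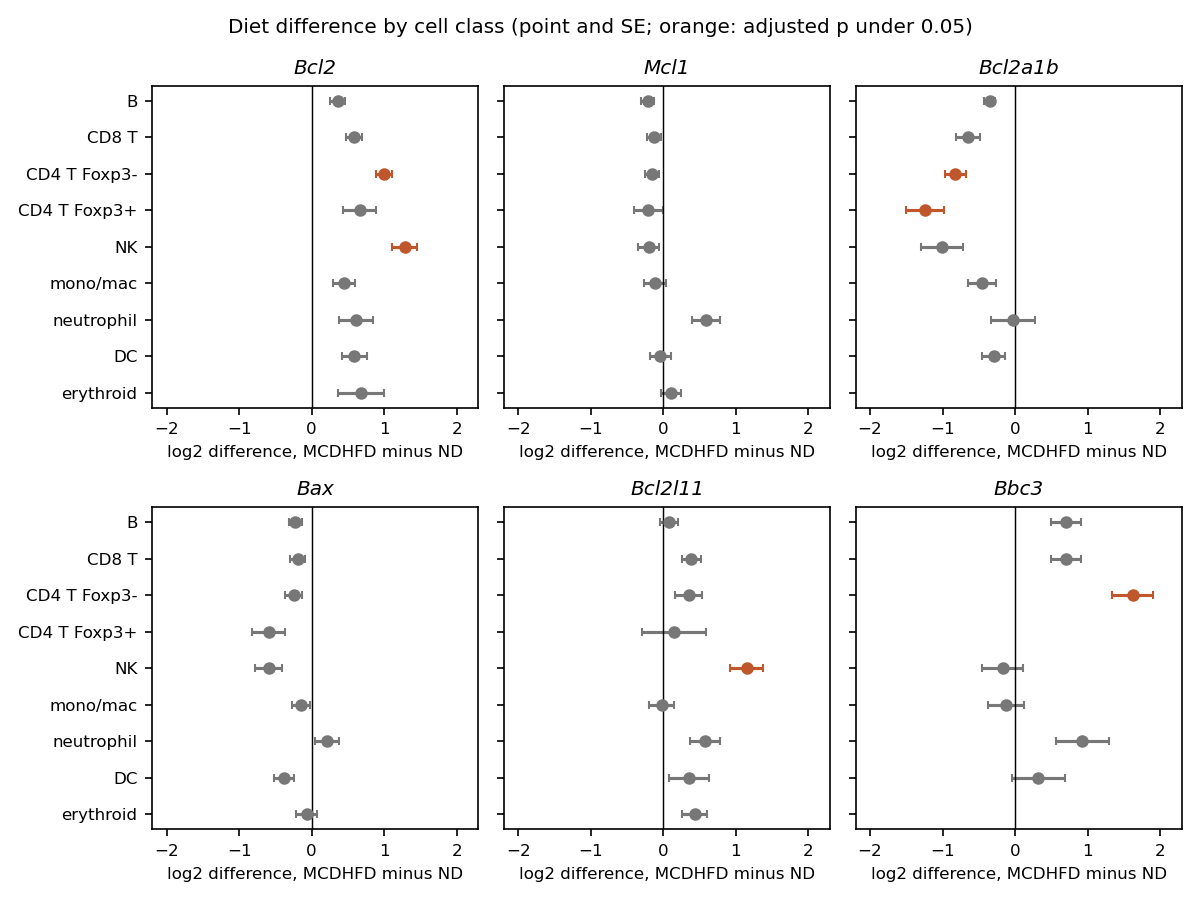
Log2 difference between MCDHFD and ND with its SE for 6 of the members in each class, from edgeR with list form as a term; orange points have an adjusted p under 0.05. Bcl2 lies between 0.36 and 1.28 in the 9 classes and Bcl2a1b between -1.24 and -0.04 in 8.

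Bax, Bak1, Bcl2l1 and Mcl1 passed the diet test in none of their 9, 9, 8 and 9 classes. Bax differed by -0.59 to 0.21 on the log2 scale, with a negative sign in 8 of 9 classes, and came closest in NK cells (-0.59, edgeR adjusted p = 0.0975). In Foxp3- CD4 T cells the filtered libraries, 1 of each diet, had 119 and 104 CPM of Bax and the other 4 had 51.0 to 71.5 CPM. Bak1 differed by -0.70 to 0.01. Bcl2l1 was at 31.2, 22.3 and 32.4 CPM in NK cells under ND and at 51.6, 51.9 and 43.3 CPM under MCDHFD, which did not overlap (0.64, edgeR adjusted p = 0.0924).

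Whether the Bcl2 difference itself differed between classes was tested as an interaction of class and diet for 3 pairs of classes. The difference was smaller in B cells than in Foxp3- CD4 T cells by 0.68 on the log2 scale (-0.68 ± 0.08 SE, edgeR adjusted p = 0.0004), and this held in 11 of 11 alternatives. In CD8 T cells it was also smaller than in Foxp3- CD4 T cells by 0.46 (-0.46 ± 0.08 SE, edgeR adjusted p = 0.0204), and this call was lost without ND replicate 1 or MCDHFD replicate 1 (highest adjusted p 0.0825). Between the 2 CD4 T classes it was -0.37 ± 0.19 and did not pass (edgeR adjusted p = 0.548). Of 10 members in each pair of classes, in this order, 1, 1 and 0 were called, where 2.40%, 0.353% and 0.637% of all tested genes were called, and 3, 2 and 0 members had an unadjusted p under 0.05. With cells that passed 1 gate only, Bcl2 was called in the same 2 pairs and Bbc3 was added for B cells (2, 1 and 0 members, against 2.98%, 0.546% and 0.328% of all genes). The NK cells were not part of these tests.

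The classes hold cells in different states, so the members were compared between states inside a class, and diet inside each state. In CD8 T cells, those with a Ccl5 UMI, a chemokine of memory and effector cells, had more Bbc3, Bcl2l1, Bcl2a1d, Bcl2l11, Bcl2a1b and Bcl2 than those without, by 1.25, 1.05, 0.93, 0.61, 0.53 and 0.52 on the log2 scale. In all, 6 of 10 tested members passed in edgeR (9.77% of all genes), with adjusted p of 2.6e-05 for Bcl2 and 4.2e-05 for Bbc3. Mcl1 (-0.10), Bax (0.13), Bak1 (0.04) and Pmaip1 (0.52) did not. The Bcl2a1d call held in 4 of 9 alternatives and that of Bcl2a1b in 6 of 10. With cells thinned to 1000 UMIs the calls of Bbc3 (0.89), Bcl2l11 (0.67) and Bcl2a1b (0.65) were lost and that of Bcl2 (0.38) held. Bbc3 stood at 24.2 to 64.3 CPM in cells with Ccl5 and at 9.14 to 44.8 CPM in those without, and was higher with Ccl5 in each library. Cells with a Ccl5 UMI were deeper, with a median of 7965 to 11918 UMIs against 6457 to 9011.

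In Foxp3- CD4 T cells, an S100a4 UMI marks antigen-experienced cells. Bcl2a1d (2.23), Bcl2a1b (1.31), Bak1 (0.86) and Bax (0.33) were higher with S100a4, and Bcl2l11 and Bcl2 fell by 0.84 and 0.67, so that 6 of 9 tested members were called in edgeR (16.5% of all genes). Bcl2a1b was at 49.5 to 201 CPM with S100a4 and at 22.9 to 44.0 CPM without. The call for Bax held in 1 of 10 alternatives, and with thinned cells those of Bcl2 (-0.37) and Bcl2l11 (-1.71) were lost too. Cells with an S100a4 UMI made up 17.4% to 23.3% of this class under ND and 8.20% to 15.0% under MCDHFD.

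The diet difference of Bcl2 was present within the cells without S100a4: 317, 213 and 405 CPM under ND against 712, 741 and 370 CPM under MCDHFD (0.92 ± 0.11 SE, edgeR adjusted p = 0.0015), with MCDHFD replicate 3 below ND replicate 3. Bbc3 was also called there (1.56 ± 0.28 SE, edgeR adjusted p = 0.0147). In the cells with S100a4, Bcl2 differed by 1.14 ± 0.21 and missed the threshold (edgeR adjusted p = 0.0628). Bcl2a1b, in contrast, was called in neither state: it differed by -0.59 ± 0.17 without S100a4 (edgeR adjusted p = 0.125) and by -0.82 ± 0.22 with it (0.176). Of all genes, 1.46% were called by diet in the cells without S100a4 and 0.291% in those with it, and with diet alone 0% in both.

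Within CD8 T cells without a Ccl5 UMI, Bcl2 was called by diet (0.67 ± 0.11 SE, edgeR adjusted p = 0.0134), at 361, 218 and 383 CPM under ND and 652, 646 and 328 CPM under MCDHFD. The diets overlapped, with MCDHFD replicate 3 below ND replicates 1 and 3, and Bcl2 was not called with diet alone (edgeR adjusted p = 1.0). It was 1 of 10 tested members, against 0.948% of all genes (0.00948% with diet alone). With Ccl5 it was 0.39 ± 0.14 and not called (edgeR adjusted p = 0.273), where 0.690% of genes were. A test of the difference between these states was not run. In B cells without Cd93, a marker of immature B cells, both A1 genes were called (Bcl2a1b fell by 0.41 and Bcl2a1d by 0.46, edgeR adjusted p = 0.0436 and 0.0359), 2 of 10 tested members against 4.76% of all genes. With diet alone neither was called (edgeR adjusted p = 0.702 and 0.642). Cells with a Cd93 UMI were 3.03% to 4.45% of B cells under ND and 1.15% to 1.43% under MCDHFD. None of the 10 members differed between B cells with and without Cd93 in edgeR (11.1% of all genes did), 5 of the 10 having an unadjusted p under 0.05.

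**Figure D4:**
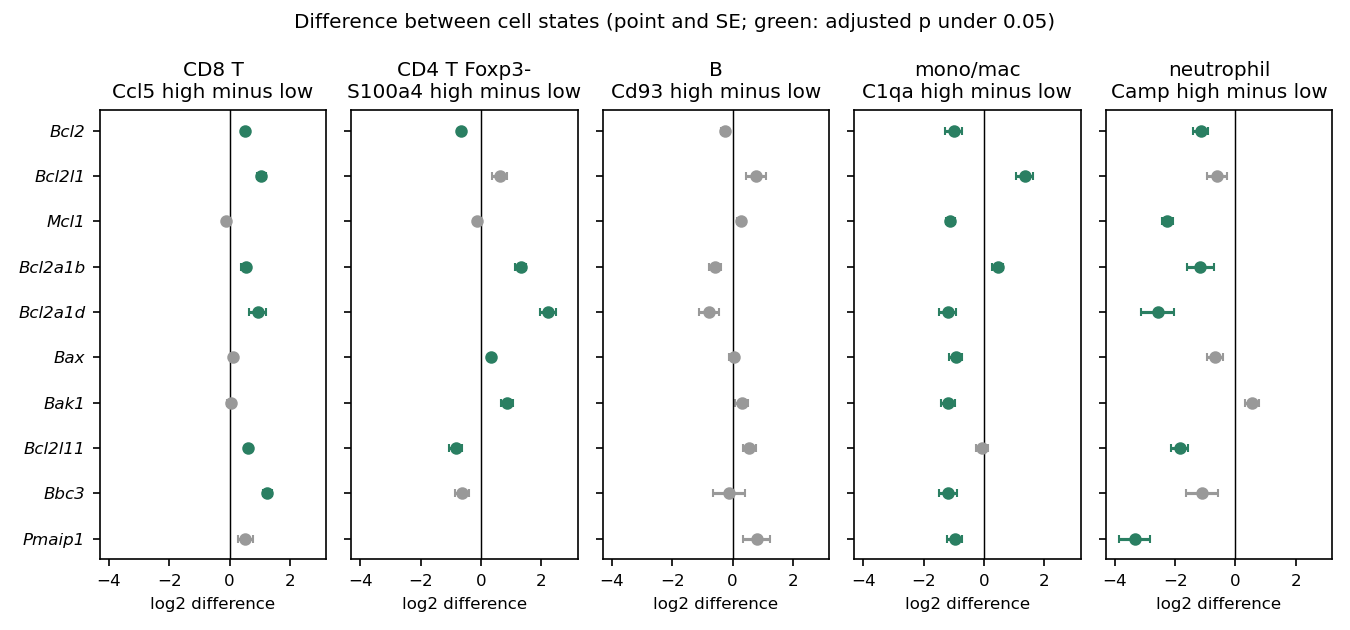
Log2 difference of each member between cell states of 5 classes with its SE, from edgeR with library as a term; green points have an adjusted p under 0.05. Mcl1 is lower in C1qa-high mono/mac (-1.11) and in Camp-high neutrophils (-2.26), and Bcl2a1d is higher in CD4 T cells with S100a4 (2.23).

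In mono/mac, cells with at least 2 UMIs of C1qa, a complement gene of tissue macrophages, differed from the rest in 9 of 10 members, where 50.5% of all genes did. Bcl2l1 was higher (1.35 on the log2 scale, edgeR adjusted p = 0.0015), at 20.6 to 59.6 CPM against 7.38 to 16.7 CPM, and so was Bcl2a1b (0.45, adjusted p = 0.0415, held in 2 of 10 alternatives). Mcl1 fell by 1.11, at 237 to 321 CPM in C1qa-high and 484 to 589 CPM in C1qa-low cells without overlap. Bcl2, Bbc3, Bcl2a1d, Bak1, Bax and Pmaip1 fell by 1.01, 1.20, 1.21, 1.19, 0.94 and 0.98. Bcl2l11 did not pass (-0.07). With thinned cells Mcl1 (-1.50) and Bcl2 (-1.76) were still called, whereas Bcl2l1 (0.92), Bcl2a1d (-0.56), Bax (-0.37), Pmaip1 (-0.33), Bcl2a1b (0.29) and Bak1 (-0.01) were not. The C1qa-high share was 20.9% to 23.2% under ND and 23.4%, 14.0% and 48.9% in MCDHFD replicates 1 to 3. Neutrophil markers and mono/mac markers occur together in this gate, as 604 of its 3055 cells also passed the neutrophil gate.

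In neutrophils, Mcl1 differed strongly between states whose shares shifted with diet. Over the whole gate Mcl1 was at 486, 550.2 and 699.9 CPM under ND and at 950.1, 1118 and 881 CPM under MCDHFD. Every MCDHFD library exceeded every ND library, as 22.2% of all genes of this class did in one direction or the other, but the difference did not pass the test (0.59 ± 0.19 SE, edgeR adjusted p = 0.0964). It did with cells that passed 1 gate only (1.18, edgeR adjusted p = 0.0043, where 26.7% of all genes passed), as did Bcl2l11 (1.35), Pmaip1 (1.21) and Bcl2a1b (1.91). Marker lists moved with diet in this gate, all 4 genes of each detected, among them Csf3r of the gate itself in the neutrophil list. The neutrophil list summed to 95819 to 128414 CPM under ND and 60633 to 86677 CPM under MCDHFD, the mono/mac list to 6164 to 8694 and 4013 to 5301 CPM, and the erythroid list to 11.2 to 509 and 854 to 6067 CPM. Their part in the neutrophil differences was not tested.

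Cells with at least 5 UMIs of Camp, a granule gene of immature neutrophils, had far less Mcl1: 171, 152 and 179 CPM under ND and 114, 207 and 259 CPM under MCDHFD, against 1051, 1068 and 1218 CPM and 1181, 1166 and 1024 CPM in the Camp-low cells. The log2 difference was -2.26 ± 0.20 (SE, edgeR adjusted p = 2.9e-07). Camp-high cells made up 36.6%, 31.4% and 24.4% of neutrophils under ND and 6.60%, 1.55% and 11.7% under MCDHFD. Among Camp-low neutrophils the diets overlapped in Mcl1 (1112 ± 91.9 and 1124 ± 86.5 CPM, SD, n = 3), and the difference was 0.16 ± 0.17 (SE, edgeR adjusted p = 0.668). Among Camp-high cells it was -0.04 ± 0.29 (edgeR adjusted p = 1.0), from 7 to 170 cells per library.

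Pmaip1, Bcl2a1d, Bcl2l11, Bcl2a1b and Bcl2 also fell in Camp-high cells, by 3.35, 2.59, 1.86, 1.16 and 1.15 on the log2 scale, so that 6 of 10 members were called (38.0% of all genes). Bak1 had the opposite sign (0.56) and did not pass (edgeR adjusted p = 0.0745). Bcl2a1b held in 3 of 9 alternatives. No member was called by diet in Camp-low or Camp-high neutrophils, where 0.301% and 0.0961% of genes were, 1 and 0 of the tested members having an unadjusted p under 0.05 in edgeR. Camp-high cells were deeper, with a median of 8547 to 21960 UMIs against 3467 to 4515, and the part of depth in these state differences was not tested beyond thinning every cell to 1000 UMIs. Thinning left 32 of the 49 pairs of member and state split with enough UMIs to test. Of the 27 state calls of all 5 classes, 6 held, among them Mcl1 and Bcl2l11 in neutrophils, 12 were lost and 9 could not be tested.

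**Figure D5:**
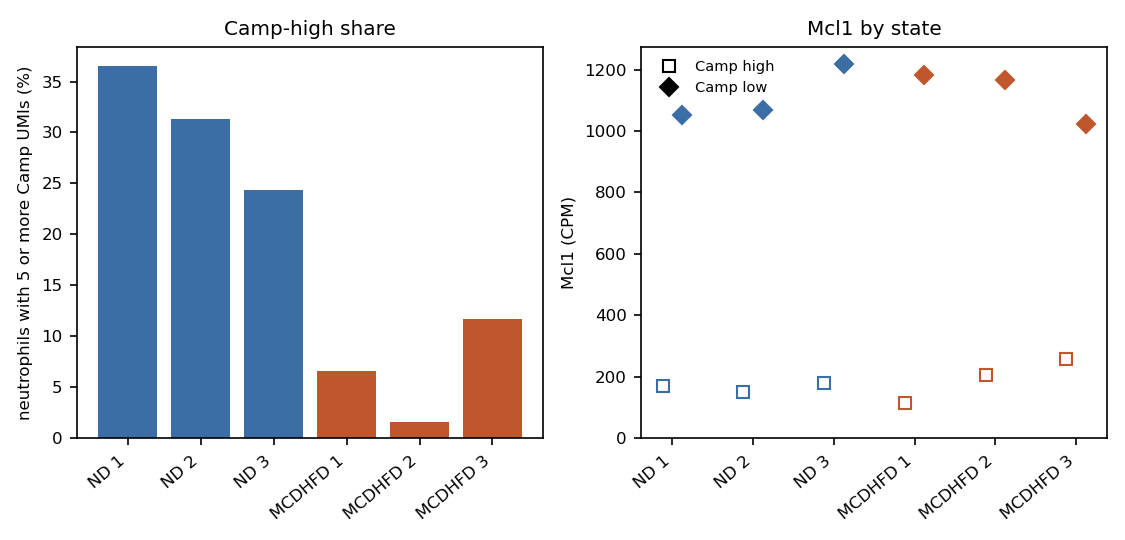
Share of neutrophils with at least 5 Camp UMIs in each library (left, bars) and Mcl1 CPM in Camp-high (open squares) and Camp-low cells (filled diamonds) of each library (right). The Camp-high share is 24.4% to 36.6% under ND and 1.55% to 11.7% under MCDHFD, and Mcl1 lies at 1024 to 1218 CPM in Camp-low and 114 to 259 CPM in Camp-high cells in both diets.

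Trnp1, the gene the series is about, had a UMI in 3.46% to 5.10% of CD8 T cells under ND and in 32.8%, 47.2% and 63.6% in MCDHFD replicates 1 to 3. Cells of the MCDHFD libraries with a Trnp1 UMI were matched one to one on total UMIs with cells without (294, 383 and 240 pairs). In edgeR 0 of 10 members differed between them (0.852% of all genes did). DESeq2 likewise called 0, and 2 members had an unadjusted edgeR p under 0.05. Bcl2 was at 684, 780.0 and 339.9 CPM with and at 733, 729.7 and 354 CPM without a Trnp1 UMI, a log2 difference of 0.02 ± 0.06 (SE). Bcl2a1b had the smallest adjusted p (edgeR, 0.284), at 12.3, 16.3 and 18.2 CPM with and 15.7, 22.4 and 32.5 CPM without, lower in 3 of 3 libraries (-0.51 ± 0.17 SE). Bcl2l1 was the other gene (-0.61 ± 0.27 SE, edgeR adjusted p = 0.535).

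Of the wider apoptosis and survival pathway, 7 lists with 120 genes were tested in each class with the same fits. The 15 other BCL2 family genes had no call in any of the 9 classes. Over all lists, 9 genes were higher and 3 lower of 112 tested in B cells, 2 and 0 of 102 in CD8 T cells, 2 and 0 of 98 in Foxp3- CD4 T cells, 3 and 1 of 61 in Foxp3+ CD4 T cells, 2 and 4 of 84 in NK cells and 1 and 1 of 106 in mono/mac. In neutrophils it was 11 and 0 of 102, in dendritic cells 3 and 0 of 99, and in erythroid cells 0 and 0 of 78. The shares of all genes called, in the order of these classes, were 4.13%, 0.630%, 1.46%, 2.50%, 3.06%, 1.17%, 6.36%, 1.58% and 0.0992%. The 2 of 98 in Foxp3- CD4 T cells and the 2 of 106 in mono/mac lie near these shares. Calls were also few in CD8 T cells (2 of 102) and dendritic cells (3 of 99), and no list was tested against all genes. The lists, too, were chosen with earlier results of these data known. None of the calls named here had an adjusted p under 0.05 with diet alone in edgeR.

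The most frequent call was Fkbp5, a chaperone gene induced by glucocorticoid hormones, which was higher under MCDHFD in 8 of the 9 classes. In NK cells it was at 86.5, 40.1 and 90.6 CPM under ND and 242, 379 and 173 CPM under MCDHFD (1.77 ± 0.19 SE, edgeR adjusted p = 0.0011). Its difference was 1.32 in Foxp3+ CD4 T cells, 1.59 in Foxp3- CD4 T cells, 1.86 in CD8 T cells, 2.05 in neutrophils, 2.08 in dendritic cells, 2.25 in B cells and 2.44 in mono/mac. Tsc22d3, another glucocorticoid-induced gene, was higher in Foxp3+ CD4 T cells (1.62) and neutrophils (1.09). Ddit4, a stress-induced inhibitor of mTORC1, was called in CD8 T, NK, dendritic cells and neutrophils (1.00, 1.27, 1.64 and 2.05), with ND replicate 2 above at least 1 MCDHFD library in each.

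Among the receptors of survival cytokines, Il7r, the interleukin-7 receptor chain, was at 201, 150.1 and 276 CPM under ND and 491, 531 and 491 CPM under MCDHFD in Foxp3+ CD4 T cells (1.25, edgeR adjusted p = 0.0019), and was also called in B cells (1.30) and neutrophils (1.67). It was not called in Foxp3- CD4 T, CD8 T or NK cells. In the B cell gate Il7r was at 14.5, 20.7 and 17.0 CPM under ND and 33.5, 36.7 and 65.0 CPM under MCDHFD. The 4 CD8 T cell markers summed there to 41.5 to 114 CPM under ND and 74.0 to 202 CPM under MCDHFD. The part of T cells in the B cell difference was not tested, and wider genes are given for the gates as drawn only. Il4ra (1.01), Il6ra (1.05) and Csf1r (1.18) were higher in neutrophils, and Csf1r is also the gene of the mono/mac gate. Birc5 (survivin, a gene of dividing cells) was lower in NK cells (-3.37), mono/mac (-1.68) and B cells (-1.56). Cycs, which encodes the cytochrome c released through BAX and BAK1, and Vdac2, a channel of the outer mitochondrial membrane that binds BAK1, fell in NK cells by 0.68 and 0.69. Fas, the death receptor, was higher in neutrophils (1.01, edgeR adjusted p = 0.039), and Tnfrsf1b in dendritic cells (1.30).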

How the data were processed

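The deposited values are raw UMI counts per gene and barcode, per the file headers, and were checked to be whole numbers. Cell Ranger 9.1.0 (mm10) and Seurat 4.3.0 are listed in the submitters' processing notes, while the file headers name Cell Ranger 9.0.1 for 4 libraries and 7.2.0 for the 2 with filtered lists. The form of a list was read from its number of barcodes.

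Total counts were 21259837 to 62238012 UMIs per library. Counts of gated cells were summed per library and class, and a cell could pass several gates. No doublet caller was run; cells passing 1 gate only stand in for it. Genes with at least 60 UMIs were tested with edgeR 4.0.16 (TMM, quasi-likelihood; R 4.3.3), with diet and list form as terms. States and Trnp1 status used library, and the interaction used library, class, and class by list form and by diet. DESeq2 1.42.0 was an alternative. CPM are parts of 1000000 UMIs of the sum, with a pseudocount of 1 on the log2 scale. SE was taken from the log2 difference and the F statistic. Named wider genes are up to 4 per list and class with the smallest p among those called.

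The members, lists and tests were chosen with earlier results of these data known. Counts were simulated with 200 genes changed by 1 on the log2 scale. For diet, 90.0% of these were recovered in CD8 T cells (11266 genes) and 58.5% in erythroid cells (9076 genes). For the interaction of CD8 T and Foxp3- CD4 T cells it was 75.0% (12189 genes). It was 99.0% for the Ccl5 states and 93.5% for Trnp1 status in CD8 T cells. The false share, in the same order, was 3.23%, 4.10%, 3.85%, 4.35% and 6.97%. Recovery is given over all changed genes, so it does not give the power for members with few UMIs. Within a comparison, all simulated sums shared the same mean profile and the same dispersion, without differences between libraries or list forms. Only genes above a minimum mean count were changed. The shares thus check the fits under these settings and do not give the recovery or the false share in the data.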

Additional observations from a re-analysis of the deposited data

Results flagged for a closer look

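The diet difference of Bcl2 differed between cell classes by a test of the interaction of class and diet: it was -0.46 in CD8 T cells relative to Foxp3- CD4 T cells and -0.68 in B cells relative to Foxp3- CD4 T cells, on the log2 scale.

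A signal appeared in data that the comparisons did not use, the barcodes with 10 to 100 UMIs of the unfiltered libraries, at a higher level in both MCDHFD than in both ND libraries. Bcl2 was at 250 and 214 CPM in MCDHFD replicates 1 and 2, from 90 and 84 UMIs, against 136 and 99.3 CPM in ND replicates 1 and 3. Bbc3 was at 11.1 and 10.2 CPM, from 4 UMIs each, against 6.48 and 5.74 CPM. Pmaip1 was at 22.2 and 10.2 CPM, from 8 and 4 UMIs, against 5.56 and 4.79 CPM. The counts of Bbc3 and Pmaip1 are too low for their difference to be read. Such barcodes were fewer in the MCDHFD libraries (12980 and 13067) than in the ND libraries (97173 and 61155), so the sets are unlike.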

How the results depend on the processing

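Of the 80 tested pairs of member and class, 7 were called by diet. The count was 0 with diet alone, 0 with the replicate block, 0 for cells that pass 1 gate only with diet alone (added after seeing the data), 3 with thinned cells and 11 with DESeq2. It was 13 each with no filter on low counts, with cells that pass 1 gate only and with the 4 unfiltered libraries. Of the 80 pairs, 42 could be compared with thinned cells, 72 with cells that pass 1 gate only and 75 with the 4 unfiltered libraries. Leaving out one library gave 2 to 13: 2 without ND replicate 1, 4 without MCDHFD replicate 1 or 2, and 13 without ND replicate 2 or MCDHFD replicate 3, the filtered libraries. In these last fits the list form term takes up the filtered library that remains, so diet is estimated from the 4 unfiltered libraries only. They are therefore not separate from the setting with the 4 unfiltered libraries. The cause of the other changes in the count was not tested. Deviations of libraries from the mean of their diet followed list form. Between the diets, libraries of the same form correlated at 0.60 to 0.81 and those of unlike form at -0.66 to -0.84. Same-numbered libraries had r = 0.66 for replicate 1, and -0.71 and -0.76 for replicates 2 and 3, whose forms differ. These values therefore cannot tell whether the replicate numbers pair the libraries. The replicate block was used as an alternative only. The interaction count of 2 became 4 with no filter on low counts and 1 to 2 without one library. The 27 state calls became 6 with thinned cells, where 9 of the 27 had too few UMIs to be tested. The Trnp1 count stayed at 0 in every setting run. Bcl2a1b in neutrophils reversed, to 1.91, with cells that pass 1 gate only. Values changed sign in 81 of 1365 diet (1 of them called), 35 of 325 interaction, 16 of 473 state and 8 of 68 Trnp1 recomputations. Low depth limits Pmaip1, with 13 to 49 UMIs in its untested classes, and Foxp3+ and erythroid cells, where 8 and 5 members could be tested.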

Other observations

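Over the 54 sums of class and library, some members shared their pattern of levels and some opposed it, given as Pearson correlations of log2(CPM + 1) that describe these sums, which share libraries and depth. Bcl2a1b and Bcl2a1d went together (r = 0.89), as near copies whose reads may be divided between them, and both went with Pmaip1 (0.68 and 0.75), all 3 being highest in dendritic cells. Mcl1 went with Pmaip1 (0.62), Bcl2a1b (0.54) and Bcl2a1d (0.49), and not with the other BH3-only genes, Bcl2l11 (-0.28) and Bbc3 (0.09). Bcl2 was opposed to Bak1 (-0.75) and showed no such relation with Mcl1 (-0.03). Over the gates as drawn, Bcl2 was lowest and Bak1 highest in erythroid cells, while with cells that passed 1 gate only Bak1 was highest in mono/mac. Bcl2 and Bbc3 went together (0.59), both being high in T and NK cells.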
